A study of Mus musculus with 12 samples.

Results

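Gfap, Vim and Nes encode 3 intermediate filament proteins by which glia and their precursors are commonly recognised, and their transcripts were followed library by library in normal cerebellar astrocytes, tumor-derived astrocytes and tumor cells of the mouse. The members were the rows of the deposited count table that carry these symbols, which gave 3 genes of 46517. The study, on medulloblastoma, a cancer of the cerebellum, set tumor-derived astrocytes against normal astrocytes and against the tumor cells themselves, which are granule neuron progenitors (GNPs). It holds 12 libraries, 4 in each group, numbered here 1 to 4 in accession order. Per the labels, every library came from individual cells lifted from frozen sections with a laser, and short 3′ end cDNA was amplified and amplified again before sequencing, so a count does not scale with transcript length. The normal astrocytes carry the label Normal astrocyte and strain C57BL/6, and a deposited sample sheet calls them adult astrocytes of the cerebellum. The tumor-derived astrocytes carry the label Tumor-derived astrocyte and strain C57BL/6. The tumor cells carry the label Tumor GNP cell, with strain entries that count up over the 4 libraries: C57BL/7, C57BL/8, C57BL/9 and C57BL/10. Whether these entries name different strains is not given. No genotype, treatment, sex or tumor model is given for any group in the sources used here. The titles of all 4 GNP libraries end in _cul, those of the normal astrocytes in _AD and those of the tumor-derived astrocytes in _YA. The sample sheet spells out the first GNP entry as cultured, while the labels give laser capture for all. Any difference in age, culture or labelled strain thus coincides with cell type and cannot be told apart from it.

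Intermediate filaments are ropes of coiled-coil proteins that give cells mechanical strength. GFAP and vimentin each assemble filaments, whereas nestin has to polymerise with a partner such as vimentin. In the brain nestin and vimentin are typical of neural stem cells, radial glia and immature astrocytes, GFAP of mature astrocytes, and many astrocytes raise GFAP, vimentin and nestin after injury. Vimentin is also made by endothelial cells, fibroblasts and microglia, and nestin by vessel-associated cells.

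Libraries held 8154401 to 12626596 counts. GNP libraries 1, 2 and 4 were closer to each other than any other pair within a group: chi-square per degree of freedom between their counts was 1.43 to 7.52 over 3 pairs, against 24.03 to 184.34 over the other 15 pairs. They were therefore summed into 1 sample in every test and averaged as 1 sample in every GNP mean (n = 2 with library 3). Aldh1l1, a general astrocyte marker, was at 241 ± 153 TMM-normalised CPM (counts scaled to library size; SD, n = 4) in normal astrocytes, at 274 ± 58.4 CPM (n = 4) in the tumor-derived ones, and at 0.843 ± 0.0179 CPM (n = 2) in GNPs. The granule progenitor factor Atoh1 was at 0 counts in every normal library, at 6.48 ± 4.54 CPM in the tumor-derived ones, and at 40.8 ± 22.8 CPM in GNPs. The normal libraries also held transcripts of Purkinje cells, the large neurons beside cerebellar astrocytes: 6 Purkinje markers summed to 4029 to 14696 CPM there, against 144 to 566 CPM in the tumor-derived libraries and 86.0 to 90.4 CPM in the GNP libraries, where Pcp2, Car8 and Ppp1r17 were at 0. Each title carries a number of its own, also in GNP libraries 1, 2 and 4. Whether it names an animal is not given, so libraries may share one, and p-values over libraries would then be too small. Part of the spread between libraries may be technical.

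On mm10, Gfap (ENSMUSG00000020932) lies at chr11:102887336-102900912 on the minus strand, Vim (ENSMUSG00000026728) at chr2:13573927-13582826 on the plus strand and Nes (ENSMUSG00000004891) at chr3:87971078-87980451 on the plus strand. GENCODE M21 gives Gfap 3 transcripts, of which 2 code for protein and end at different 3′ positions, so that counts from 3′ ends sum both forms. Vim has 6 transcripts, 3 of them coding, and Nes 3, of which 2 code for protein and share 1 3′ end. The lincRNA Gm26668 overlaps Gfap on the opposite strand and had 23 to 89 counts per library. Whether counting used strand is not given, so reads of the 2 genes cannot be told apart where they overlap, and in normal libraries 1, 3 and 4 the Gfap counts were below those of Gm26668.

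The promoter windows below show how Gfap and Nes, the 2 genes called higher in tumor-derived than in normal astrocytes, start. Each runs from 250 bases before to 30 bases after the RefSeq start (GRCm38.p6), is written 5′ to 3′ along the gene, and has in capitals every match, on either strand, to 5 motifs. They are the TATA box (TATAAA), the CCAAT box, the GC box of Sp factors (GGGCGG), the STAT-type site (TTCNNNGAA) and the nuclear factor I palindrome (TGGC and GCCA with 5 bases between them). No 2 matches overlap.
Gfap, chr11:102897171-102897450, minus strand: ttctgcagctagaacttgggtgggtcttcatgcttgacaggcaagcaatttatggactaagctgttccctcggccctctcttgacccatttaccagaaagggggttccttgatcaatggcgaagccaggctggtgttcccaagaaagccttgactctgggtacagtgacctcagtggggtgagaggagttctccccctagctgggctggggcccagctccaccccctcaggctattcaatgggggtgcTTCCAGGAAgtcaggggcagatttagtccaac
Nes, chr3:87970843-87971122, plus strand: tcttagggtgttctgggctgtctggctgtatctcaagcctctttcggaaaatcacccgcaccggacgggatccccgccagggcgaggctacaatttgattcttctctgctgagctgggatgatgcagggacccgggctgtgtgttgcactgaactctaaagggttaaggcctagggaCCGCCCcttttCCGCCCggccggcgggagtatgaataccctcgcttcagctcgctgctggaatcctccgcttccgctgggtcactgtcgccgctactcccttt
Vim, chr2:13574271-13574300, plus strand: aacagtgtTATAAAagcagcgcccttggcg
For Vim only 30 bases around its TATAAA are shown, because GENCODE places the start of 2 coding transcripts 359 and 384 bases further upstream. The start of the other coding transcript, Vim-206, lies 30 bases upstream of the RefSeq start, within this TATAAA.

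The 3 windows differed in base composition and in the motifs they held. The Nes window had 18 CpG dinucleotides and 59.3% G or C, with GGGCGG on the opposite strand (printed as CCGCCC) starting 73 and 62 bases before the start. The Gfap window had 2 CpG dinucleotides and 55.4% G or C, and its only match was TTCCAGGAA, a TTCNNNGAA site that starts 2 bases before the RefSeq start and 71 bases before the start of the other coding transcript, Gfap-201. Gfap-201 starts 69 bases downstream of the RefSeq start, beyond the end of this window. The bases just before its start were therefore not searched for motifs. The Vim window of the same length had 9 CpG dinucleotides and 59.3% G or C, TATAAA 32 bases before its RefSeq start, and CCAAT 196 bases and, on the opposite strand, 94 bases before it. Over 32851 RefSeq promoters the medians were 6 CpG dinucleotides and 52.5% G or C. Matches were found in 13.1% of them for TATAAA, 36.1% for CCAAT, 34.7% for GGGCGG, 7.83% for TTCNNNGAA and 0.755% for the nuclear factor I palindrome. A match is a run of letters and not a measured binding site.

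By group means, Gfap and Nes shared 1 order of the groups and Vim had another. Nes was highest in tumor-derived astrocytes, intermediate in GNPs and lowest in normal astrocytes, with no overlap between any 2 groups. Vim was highest in GNPs, while the 2 astrocyte groups overlapped. Gfap was highest in tumor-derived astrocytes, and its mean was higher in GNPs than in normal astrocytes, where 1 library lay above every GNP library. In bulk samples such as these, fewer cells of a type and less RNA per cell cannot be told apart.

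**Figure D1:**
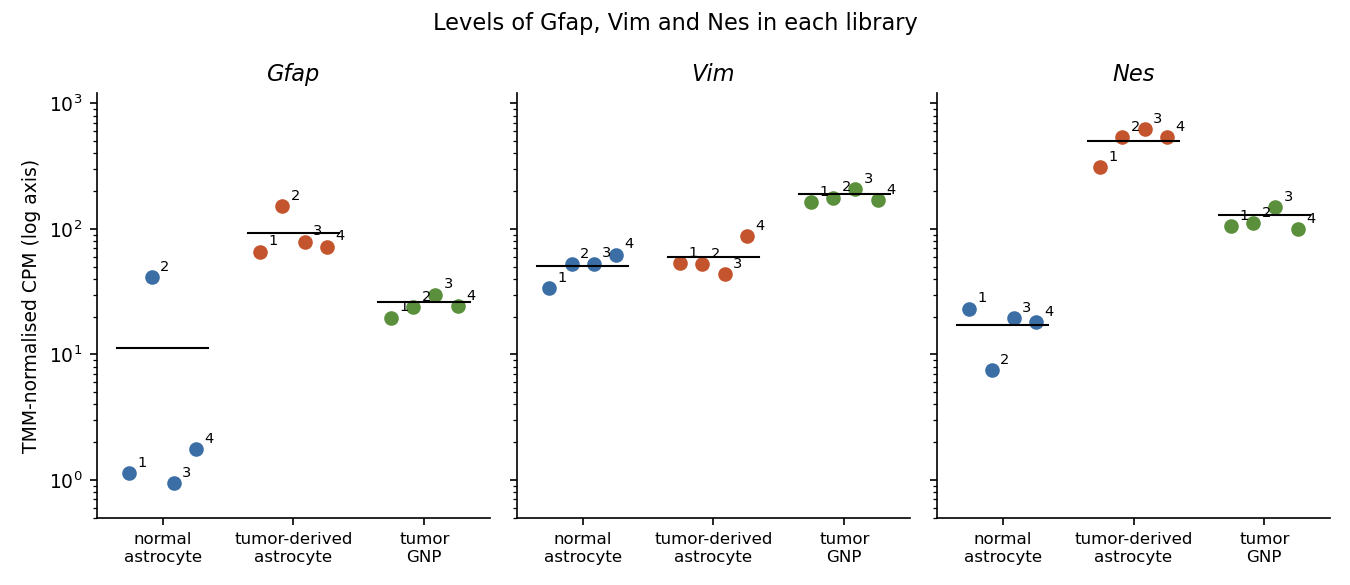
TMM-normalised CPM (log axis) of Gfap, Vim and Nes in each library of the 3 groups; points are libraries with their replicate number and black lines are group means, with GNP libraries 1, 2 and 4 averaged as 1 sample. For Gfap, normal library 2, at 41.1 CPM, stands apart from the other 3 normal libraries, which lie between 0.946 and 1.76 CPM.

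Gfap, the classical astrocyte filament gene, was close to the detection limit in 3 of 4 normal astrocyte libraries. Their levels were 1.13, 41.1, 0.946 and 1.76 CPM in libraries 1 to 4 (12, 362, 11 and 18 counts), a mean of 11.2 ± 19.9 CPM (SD, n = 4), where a limit of 3 counts corresponds to 0.258 to 0.340 CPM. Tumor-derived astrocytes held 66.0, 152, 79.3 and 72.2 CPM (529 to 1240 counts), a mean of 92.4 ± 40.3 CPM. GNPs held 19.7, 23.8, 30 and 24.2 CPM (182 to 289 counts), a mean of 26.3 ± 5.24 CPM (n = 2). Every tumor-derived library was above every library of the other groups, whereas GNP levels lay between the 3 low normal libraries and the high one.

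Against normal astrocytes, tumor-derived astrocytes had a Gfap log2 fold change of 3.04 ± 1.08 (SE), past the threshold by a narrow margin (adjusted p = 0.0481, edgeR quasi-likelihood test with Benjamini-Hochberg adjustment over 16374 genes). Normal library 2 set both the size and the error of that value. Without it the log2 fold change was 6.19 (adjusted p = 3.12e-05, edgeR), and over the 12 fits that each left out 1 library it ranged from 2.66 to 6.19, with the call kept in 4 of 12. It was lost without normal library 1, 3 or 4, without any 1 tumor-derived library and without GNP library 3, with adjusted p up to 0.115 (edgeR).

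Between tumor-derived astrocytes and GNPs, the Gfap log2 fold change was 1.74 ± 1.33 (adjusted p = 0.424, edgeR), a difference that did not pass although the groups did not overlap. The spread that enters this test is shared by all 3 groups. Without normal library 2 the value was 1.77 (adjusted p = 0.0364, edgeR), and in a fit of these 2 groups alone it was 1.77 (adjusted p = 0.0152, edgeR). GNPs against normal astrocytes gave 1.31 ± 1.18 (adjusted p = 0.457, edgeR), and 4.42 (adjusted p = 0.000159, edgeR) without normal library 2. A p that misses the threshold does not show that the groups were alike.

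Normal library 2 also differed from the other normal libraries in genes other than Gfap. Its Purkinje marker sum was 4029 CPM, against 9396 to 14696 CPM in the other 3, and its sum of 10 granule progenitor markers was 569 CPM, against 261 to 341 CPM. Its sum of 24 astrocyte markers was the lowest of the group, at 12439 CPM against 14550 to 19785 CPM. So was its Nes level, at 7.49 CPM against 18.2 to 23.2 CPM. Its sums of oligodendrocyte lineage markers (1002 CPM) and of fibroblast and meningeal markers (878 CPM) were high, but normal library 1, with 1083 and 1122 CPM, was higher in both and had Gfap at 1.13 CPM. The part of these transcripts in the Gfap level of library 2 was not tested.

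Vim, the filament gene of immature glia and of many non-neural cells, did not change detectably between the astrocyte groups and was higher in GNPs than in either. Normal astrocytes held 33.9, 52.4, 53.0 and 62.4 CPM (50.4 ± 11.9, SD, n = 4) and tumor-derived astrocytes 53.2, 52.7, 43.9 and 87.8 CPM (59.4 ± 19.4, n = 4). In GNPs Vim was at 163, 178, 207 and 170 CPM (189 ± 25.7, n = 2). Every GNP library was thus above every astrocyte library, of which tumor-derived library 4 was the highest.

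The Vim log2 fold change of tumor-derived over normal astrocytes was 0.26 ± 0.31 (adjusted p = 0.552, edgeR), smaller than its error. It was -1.74 ± 0.37 for tumor-derived astrocytes against GNPs (adjusted p = 0.0136, edgeR), so that Vim was 3.34-fold lower in the tumor-derived astrocytes. It was 2.0 ± 0.37 for GNPs against normal astrocytes (adjusted p = 0.00225, edgeR). Without GNP library 3 the log2 fold change of tumor-derived astrocytes against GNPs was -1.69 and its call was lost. GNPs then count as 1 sample, and the cause of that loss was not tested.

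Markers of other cell types in which vimentin is common were set beside Vim. In GNPs the sums of 12 endothelial markers were 9.75 to 12.4 CPM, with Cldn5, Cdh5, Tek and Ly6c1 at 0, against 200.0 to 653 CPM in normal and 216 to 329 CPM in tumor-derived astrocytes. Their sums of 12 microglia and macrophage markers were 3.22 to 8.10 CPM, with Cx3cr1, P2ry12, Aif1 and Ctss at 0. Fibroblast and meningeal markers summed to 45.3 to 94.0 CPM in GNPs and 62.0 to 86.0 CPM in tumor-derived astrocytes. They reached 878 and 1122 CPM in normal libraries 2 and 1, whose Vim was 52.4 and 33.9 CPM. GNP library 3, the highest in Vim, had the largest of the GNP sums, above every tumor-derived library. Of 8 fibroblast and meningeal markers tested, 2 were higher in GNPs than in normal astrocytes and 1 lower (12.5% and 11.6% of all genes). The part of endothelial, microglial, fibroblast or meningeal cells in the level of Vim was not tested.

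Nes, the stem and progenitor cell filament gene, rose in tumor-derived astrocytes and was highest there. Normal astrocytes held 23.2, 7.49, 19.6 and 18.2 CPM (17.1 ± 6.75, SD, n = 4). Tumor-derived astrocytes held 309, 537, 624 and 539 CPM (502 ± 135, n = 4), and GNPs 105, 111, 150 and 100 CPM (128 ± 31.4, n = 2). The lowest tumor-derived library was thus above the highest GNP library, and the lowest GNP library above the highest normal one; tumor-derived library 1 was lowest of its group in Nes, as it was in Gfap.

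Nes was 30-fold higher in tumor-derived astrocytes than in normal ones (log2 fold change 4.91 ± 0.39, adjusted p = 1.11e-05, edgeR), which ranked 36 by p among the 16374 genes tested. It was 1.90 ± 0.44 higher on the log2 scale in tumor-derived astrocytes than in GNPs (adjusted p = 0.0211, edgeR), and 3.0 ± 0.39 higher in GNPs than in normal astrocytes (adjusted p = 0.00026, edgeR). The comparisons with normal astrocytes passed in all 19 alternatives tried. The comparison with GNPs was lost without tumor-derived library 2 (1.91, adjusted p = 0.0506, edgeR), without tumor-derived library 3 (1.81, adjusted p = 0.0523) or without GNP library 3 (2.08, adjusted p = 0.107).

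Counted over the 3 genes, 2 were called higher in tumor-derived than in normal astrocytes and none lower. There 32.3% of all genes tested were called, 17.9% higher and 14.4% lower. In tumor-derived astrocytes against GNPs, 1 was higher and 1 lower, where 9.88% of all genes were called, 6.62% higher and 3.26% lower. In GNPs against normal astrocytes, 2 were higher and none lower, where 24.1% of all genes were called, 12.5% higher and 11.6% lower. These comparisons share samples, so their values stand side by side and are not independent.

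Vessel-associated cells are another source of nestin, and their markers were set beside Nes. The 12 endothelial markers summed to 216 to 329 CPM in tumor-derived astrocytes, 200.0 to 653 CPM in normal ones and 9.75 to 12.4 CPM in GNPs. Of the 11 tested, 1 rose and none fell in tumor-derived against normal astrocytes, beside 17.9% and 14.4% of all genes. Against GNPs 5 were higher and none lower, beside 6.62% and 3.26% of all genes. The 8 pericyte and smooth muscle markers summed to 40.0 to 137 CPM in tumor-derived astrocytes, 23.1 to 61.0 CPM in normal ones and 6.3 to 26.6 CPM in GNPs. Among them Cspg4, which encodes the NG2 proteoglycan of pericytes and oligodendrocyte precursors, rose from 2.29 ± 1.44 to 43.1 ± 11.4 CPM (log2 fold change 4.25 ± 0.63, adjusted p = 0.00053, edgeR). The part of vessel-associated cells, or of cells with Cspg4, in the level of Nes was not tested.

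Within a library, the ratio of 2 genes does not depend on how libraries were scaled, and it set tumor-derived astrocytes apart from both other groups for Nes over Vim. Ratios are log2 of counts with 0.5 added, and they are used to compare libraries, not the abundance of 1 gene with another. The Nes over Vim ratio was 2.54, 3.35, 3.83 and 2.62 in tumor-derived libraries 1 to 4, against -0.55, -2.80, -1.43 and -1.77 in normal and -0.63, -0.68, -0.46 and -0.76 in GNP libraries. The lowest tumor-derived ratio was above every other library, while the normal and GNP ratios overlapped.

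The Gfap over Vim ratio was 0.31, 1.53, 0.85 and -0.28 in tumor-derived and -3.05, -2.90, -2.78 and -2.81 in GNP libraries. In normal libraries it was -4.84, -0.35, -5.74 and -5.11, so that library 2 lay next to the tumor-derived range and the other 3 below every GNP library. The Gfap over Nes ratio was -2.23, -1.82, -2.98 and -2.90 in tumor-derived and -2.42, -2.22, -2.32 and -2.05 in GNP libraries, ranges that overlapped. In normal libraries it was -4.30, 2.45, -4.31 and -3.34, where library 2 was the only one of the 12 with more Gfap than Nes counts.

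**Figure D2:**
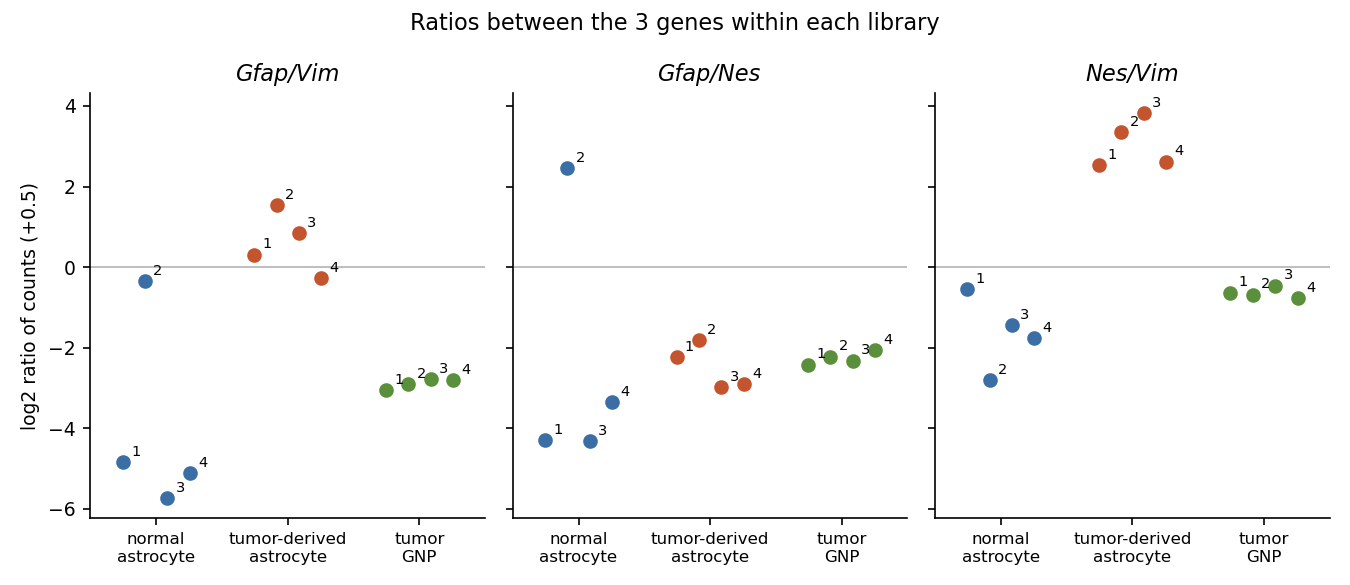
Log2 ratios of counts (0.5 added) between Gfap, Vim and Nes within each library, by group; points are libraries with their replicate number and the grey line is a ratio of 1. For Nes over Vim the tumor-derived libraries sit between 2.54 and 3.83 and all others at or below -0.46.

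The rest of the intermediate filament family was examined through 17 further genes, of which 15 passed the filter on low counts. In tumor-derived against normal astrocytes 3 of the 15 rose, 5 fell and 7 did not pass, where 17.9% of all genes were called higher and 14.4% lower. Of the 5 that fell, 4 are filament genes of neurons. Nefl, Nefm and Nefh, the light, medium and heavy neurofilament chains, fell from 59.2 ± 45.5 to 8.30 ± 7.30, from 130 ± 43.2 to 38.7 ± 29.0 and from 91.2 ± 61.3 to 5.42 ± 4.88 CPM, with log2 fold changes of -2.80 ± 0.75, -1.70 ± 0.56 and -4.04 ± 0.75 (adjusted p = 0.0152, 0.0345 and 0.00276, edgeR).

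Ina, which encodes α-internexin of young and adult neurons, fell from 406 ± 70.8 to 221 ± 51.9 CPM (-0.84 ± 0.25, adjusted p = 0.0238, edgeR). Krt222, a keratin-related gene, fell from 8.56 ± 2.78 to 0.361 ± 0.298 CPM (-4.52 ± 1.07, adjusted p = 0.00821, edgeR). The 6 Purkinje markers all fell in the same comparison, and 7 of 9 mature neuron markers did, beside 14.4% of all genes. The part of neuronal RNA in the fall of these filament genes was not tested.

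Of the genes that rose, Lmnb1, which encodes the nuclear lamina protein lamin B1, went from 0.0244 ± 0.0488 to 8.19 ± 1.55 CPM (7.88 ± 1.03, adjusted p = 0.000231, edgeR), from a single count in the 4 normal libraries. That is below the limit of 3 counts, so the size of its rise is uncertain. Prph, a filament gene of peripheral and some central neurons, was at 0 in every normal library and at 23.4, 6.02, 3.80 and 4.80 CPM in tumor-derived libraries 1 to 4, at least 32.4-fold higher when 0 is set to 3 counts per library (adjusted p = 0.00781, edgeR). Bfsp1, a lens filament gene, was at 0 in normal libraries and at 0.873 to 8.24 CPM in tumor-derived ones, at least 13.2-fold higher (adjusted p = 0.00518, edgeR). In the 19 alternatives 1 to 5 of the family rose and 3 to 5 fell; with upper quartile factors, for example, 5 rose and 3 fell, as Lmnb2 and Krt10 passed and Ina and Nefm did not.

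The other family members did not pass in that comparison. Synm (synemin, which like nestin polymerises with vimentin) was at 4.12 ± 3.79 CPM in normal and 2.02 ± 0.420 CPM in tumor-derived astrocytes. Lmna was at 133 ± 61.3 and 124 ± 35.3 CPM, Lmnb2 at 26.0 ± 14.3 and 54.5 ± 18.7 CPM, Krt10 at 4.36 ± 2.33 and 12.5 ± 7.59 CPM, and Bfsp2 at 0.383 ± 0.448 and 2.36 ± 3.22 CPM. Krt18 was at 0 in every normal and GNP library and at 2.46 and 2.71 CPM in tumor-derived libraries 2 and 3 alone. Des, the muscle filament gene desmin, was at 116 CPM in tumor-derived library 1 and 1.92 to 13.8 CPM in the other 3, and at 24.3 to 36.1 CPM in GNPs.

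Against GNPs, 1 of the 15 family members was higher in tumor-derived astrocytes and none lower, beside the 6.62% of all genes called higher. It was Nefh, at 0 in every GNP library and at least 17.3-fold higher in tumor-derived astrocytes (adjusted p = 0.00878, edgeR). In GNPs against normal astrocytes 3 were higher, where 12.5% of all genes were, and 4 lower, where 11.6% were. Lmnb1 (12.7 ± 0.483 CPM), Krt10 (25.5 ± 0.0513 CPM) and Prph (11.9, 1.53, 0 and 1.71 CPM in libraries 1 to 4) were the higher ones (adjusted p = 0.000198, 0.0194 and 0.0233, edgeR), and Nefl (0.835 ± 0.433 CPM), Nefm (15.7 ± 13.5 CPM), Nefh (0) and Krt222 (0.104 ± 0.147 CPM) the lower (adjusted p = 0.0041, 0.016, 0.000413 and 0.0176, edgeR).

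The median log2 fold change of the 15 was 1.11 in tumor-derived against normal astrocytes, where it was 0.11 over all genes. It was 1.33 against GNPs, where it was 0.06 over all genes. For GNPs against normal astrocytes it was -0.92, and -1.0 with genes at 0 in a group set to their bound, where it was 0.05 over all genes.

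**Figure D3:**
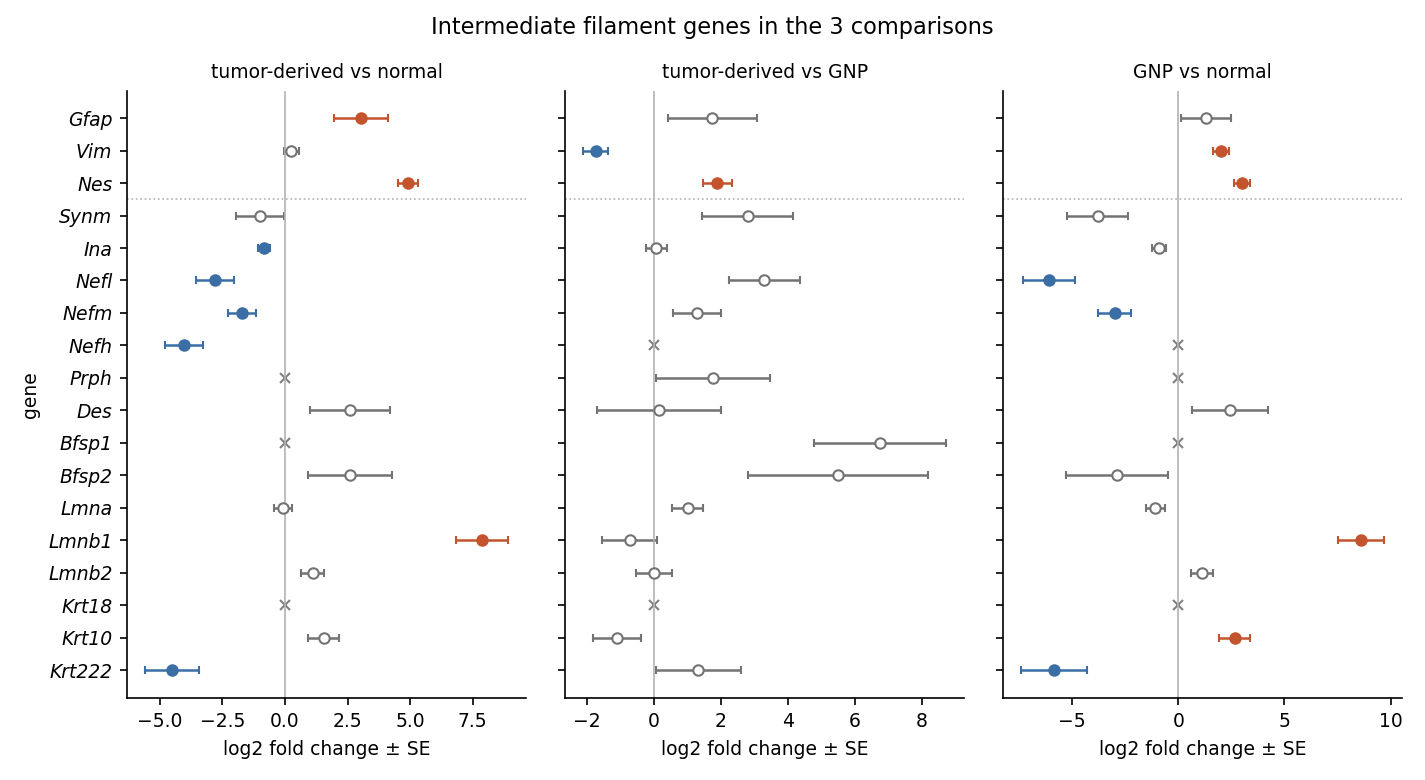
Log2 fold changes ± SE from edgeR of Gfap, Vim, Nes (above the dotted line) and 15 other intermediate filament genes in the 3 comparisons; filled points passed an adjusted p of 0.05 (red higher, blue lower), open points did not, and a cross at 0 marks a gene with no counts in 1 or both groups, for which no fold change is drawn. Nes is called higher in all 3 panels, Vim is called on the GNP side only, and the neurofilament genes Nefl and Nefm lie on the normal astrocyte side in both panels with that group.

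Proteins that link, chaperone or phosphorylate filaments were taken as a second list of 21 genes, 20 of them tested. In tumor-derived against normal astrocytes 4 rose and 8 fell, beside 17.9% and 14.4% of all genes. The mitotic kinases Cdk1 and Aurkb, which phosphorylate vimentin during cell division, were among those that rose. Cdk1 went from 0.0236 ± 0.0473 to 6.88 ± 4.36 CPM (7.63 ± 1.10, adjusted p = 0.000471, edgeR). Its mean in normal astrocytes lay below the limit of 3 counts (0.294 CPM on average), so the size of its rise is uncertain. Aurkb went from 0 to 4.91 ± 4.59 CPM, at least 16.7-fold (adjusted p = 0.0016, edgeR). Pak1 and Rock2, kinases that also act on filaments and on actin, fell: Pak1 from 805 ± 90.5 to 116 ± 39.1 CPM (-2.76 ± 0.31, adjusted p = 9.48e-05, edgeR) and Rock2 from 40.7 ± 9.02 to 4.77 ± 3.01 CPM (-3.07 ± 0.53, adjusted p = 0.0015, edgeR).

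Between tumor-derived astrocytes and GNPs, none of the 20 passed (0 by edgeR, and 0 to 6 higher and 0 to 3 lower in the 19 alternatives), beside 6.62% of all genes called higher and 3.26% lower. In GNPs against normal astrocytes 3 were higher and 7 lower, beside 12.5% and 11.6% of all genes. Dst, which encodes a plakin that ties filaments to other cell structures, was at 39.9 ± 1.80 CPM in GNPs and at 168 ± 31.5 CPM in normal astrocytes, a log2 difference of -1.97 ± 0.33 (adjusted p = 0.00128, edgeR). The median log2 fold change of the 20 was -0.71, -0.55 and -0.77 in the 3 comparisons as ordered above, and 0.11, 0.06 and 0.05 over all genes.

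Another list held 31 receptors, signal carriers and transcription factors known to act on the Gfap, Vim or Nes genes, with 26 tested. In tumor-derived against normal astrocytes 8 rose and 4 fell, beside 17.9% and 14.4% of all genes, with a median log2 fold change of 0.48 (0.11 over all genes). Pou3f4, a POU factor of the class that binds the nestin neural enhancer, was at 0 in every normal and GNP library and at 8.60 to 45.2 CPM in tumor-derived astrocytes (32.7 ± 16.4, n = 4), at least 111-fold above normal astrocytes and at least 104-fold above GNPs (adjusted p = 0.000336 and 0.00529, edgeR). Hes5, a Notch target of neural precursors, rose from 2.71 ± 4.58 to 53.7 ± 19.2 CPM (4.32 ± 1.30, adjusted p = 0.0244, edgeR), with GNPs at 5.31 ± 5.70 CPM.

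Cntfr and Jak2 were the 2 regulators that fell furthest. Cntfr, the receptor subunit for ciliary neurotrophic factor, went from 53.7 ± 20.5 to 7.91 ± 1.85 CPM (-2.74 ± 0.52, adjusted p = 0.00253, edgeR). Jak2, a kinase that activates STAT3, went from 8.88 ± 3.29 to 1.58 ± 0.183 CPM (-2.45 ± 0.67, adjusted p = 0.0157, edgeR).

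Against GNPs, 1 of the 26 regulators was higher in tumor-derived astrocytes, Pou3f4, and 6 were lower, beside 6.62% and 3.26% of all genes, with a median log2 fold change of -0.32 (0.06 over all genes). Tgfbr1, a TGF-β receptor whose pathway activates Vim in other cells, was at 64.1 ± 36.1 CPM in GNPs and 8.81 ± 3.51 CPM in tumor-derived astrocytes (-2.98 ± 0.69, adjusted p = 0.0204, edgeR). Bmpr1a, a BMP receptor, was at 11.8 ± 9.56 and 1.45 ± 0.725 CPM (-3.04 ± 0.87, adjusted p = 0.0473, edgeR). Over the 19 alternatives 1 to 4 of the list were higher and 1 to 9 lower.

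In GNPs against normal astrocytes 6 regulators were higher and 1 lower, beside 12.5% and 11.6% of all genes. Their median log2 fold change was 0.75, or 1.0 with genes at 0 set to their bound (0.05 over all genes). Tgfbr1 was 3.53 ± 0.70 higher on the log2 scale (adjusted p = 0.00365, edgeR). Pou3f2, another POU factor of the nestin enhancer class, was at 23.0 ± 1.36 CPM in GNPs and at 3.28 ± 2.23 CPM in normal astrocytes, a difference of 2.93 ± 0.67 (adjusted p = 0.00847, edgeR). Cntfr was the lower one, at 6.56 ± 5.17 CPM in GNPs (-2.87 ± 0.69, adjusted p = 0.0109, edgeR).

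The 3 filament genes were set beside markers of astrocytes, precursors and dividing cells. Of 23 astrocyte markers tested, none rose and 11 fell in tumor-derived against normal astrocytes (0 rises by edgeR, 0 to 1 in the 19 alternatives), beside 17.9% and 14.4% of all genes. Aldoc, a glycolytic enzyme gene that astrocytes and some Purkinje cells use, fell from 6956 ± 3299 to 479 ± 198 CPM (-3.83 ± 0.49, adjusted p = 0.000205, edgeR) and Gjb6, a gap junction gene, from 69.4 ± 15.4 to 3.76 ± 2.82 CPM (-4.19 ± 0.61, adjusted p = 0.000514, edgeR). Against GNPs 10 of the 23 were higher in tumor-derived astrocytes and none lower, beside 6.62% and 3.26% of all genes, among them Aldh1l1 (8.24 ± 0.72, adjusted p = 0.000222, edgeR) and Aqp4, the water channel gene (7.88 ± 1.09, adjusted p = 0.0017, edgeR).

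Of 9 tested neural precursor markers 6 rose and none fell in tumor-derived against normal astrocytes, beside 17.9% and 14.4% of all genes. Their 12-gene sum was 741 to 871 CPM in tumor-derived, 128 to 180 CPM in normal and 914 to 936 CPM in GNP libraries, so that on this sum, unlike on Nes, GNPs were the highest group. Sox11, a transcription factor of immature neurons, rose from 1.40 ± 1.65 to 280 ± 36.7 CPM (7.64 ± 0.85, adjusted p = 7.92e-05, edgeR), with GNPs at 387 ± 15.3 CPM. Cd24a, a surface protein gene of immature neural cells, rose from 0.418 ± 0.484 to 103 ± 15.8 CPM (7.99 ± 0.82, adjusted p = 4.97e-05, edgeR), with GNPs at 296 ± 1.23 CPM.

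Of 20 cell cycle genes 16 rose and none fell in tumor-derived against normal astrocytes, beside 17.9% and 14.4% of all genes; their sums were 69.0 to 89.1 CPM in normal, 2574 to 3968 CPM in tumor-derived and 3734 to 4049 CPM in GNP libraries. Tumor-derived library 1, which had the least Nes and Gfap of its group, also had the smallest cell cycle sum (2574 CPM, against 3706 to 3968 CPM) and the smallest astrocyte marker sum (3620 CPM, against 6061 to 8314 CPM). Its Purkinje sum was the largest of its group (566 CPM, against 144 to 209 CPM). Also largest were its sums of neural precursor (871 CPM, others 741 to 837) and granule progenitor markers (890 CPM, others 720 to 757). The same held for pericyte and smooth muscle (137 CPM, others 40.0 to 75.5) and mature neuron markers (1908 CPM, others 1139 to 1810). Its endothelial, microglial and fibroblast and meningeal sums were the smallest (216, 589 and 62.0 CPM). What these have to do with its filament levels was not tested.

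The summed level of microglial markers was also highest in tumor-derived astrocytes, although its members were not uniform. The 12 microglia and macrophage markers summed to 589 to 816 CPM in tumor-derived astrocytes, 183 to 536 CPM in normal astrocytes and at most 8.10 CPM in GNPs. Of the 11 tested, 3 rose and none fell in tumor-derived against normal astrocytes, beside 17.9% and 14.4% of all genes. Aif1, which encodes Iba1, rose from 17.5 ± 12.6 to 154 ± 51.3 CPM (3.17 ± 0.77, adjusted p = 0.0105, edgeR), whereas Cx3cr1 (18.4 ± 19.8 and 5.53 ± 3.08 CPM) and Ctss (10.9 ± 2.17 and 4.45 ± 1.89 CPM) did not pass. Oligodendrocyte lineage markers summed to 238 to 341 CPM in tumor-derived and 509 to 1083 CPM in normal astrocytes. Of the 10 tested, 3 fell, among them the myelin gene Mobp (143 ± 69.2 to 26.5 ± 18.3 CPM, -2.40 ± 0.59, adjusted p = 0.0106, edgeR), and 1 rose, the lineage transcription factor gene Sox10 (1.57 ± 1.54 to 30.4 ± 20.2 CPM, 4.27 ± 1.02, adjusted p = 0.00978, edgeR), which was at 0 in GNPs. Their part in the filament levels was not tested.

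Granule progenitor markers moved with Nes in the comparison of the astrocyte groups. Of 10 tested, 7 rose and none fell in tumor-derived against normal astrocytes, beside 17.9% and 14.4% of all genes. Their sums were 720 to 890 CPM in tumor-derived and 625 to 815 CPM in GNP libraries, ranges that overlapped, and 261 to 569 CPM in normal libraries. Nhlh1, a transcription factor gene of young granule neurons, was at 0 in every normal library and at 43.2 ± 24.8 CPM in the tumor-derived ones, at least 147-fold higher (adjusted p = 5.46e-05, edgeR), with GNPs at 26.5 ± 1.57 CPM. None of the 10 passed by edgeR between tumor-derived astrocytes and GNPs, where 6.62% of all genes were called higher and 3.26% lower. The 19 alternatives gave 0 to 1 higher and 0 to 2 lower. The part of these transcripts in the filament levels was not tested.

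**Figure D4:**
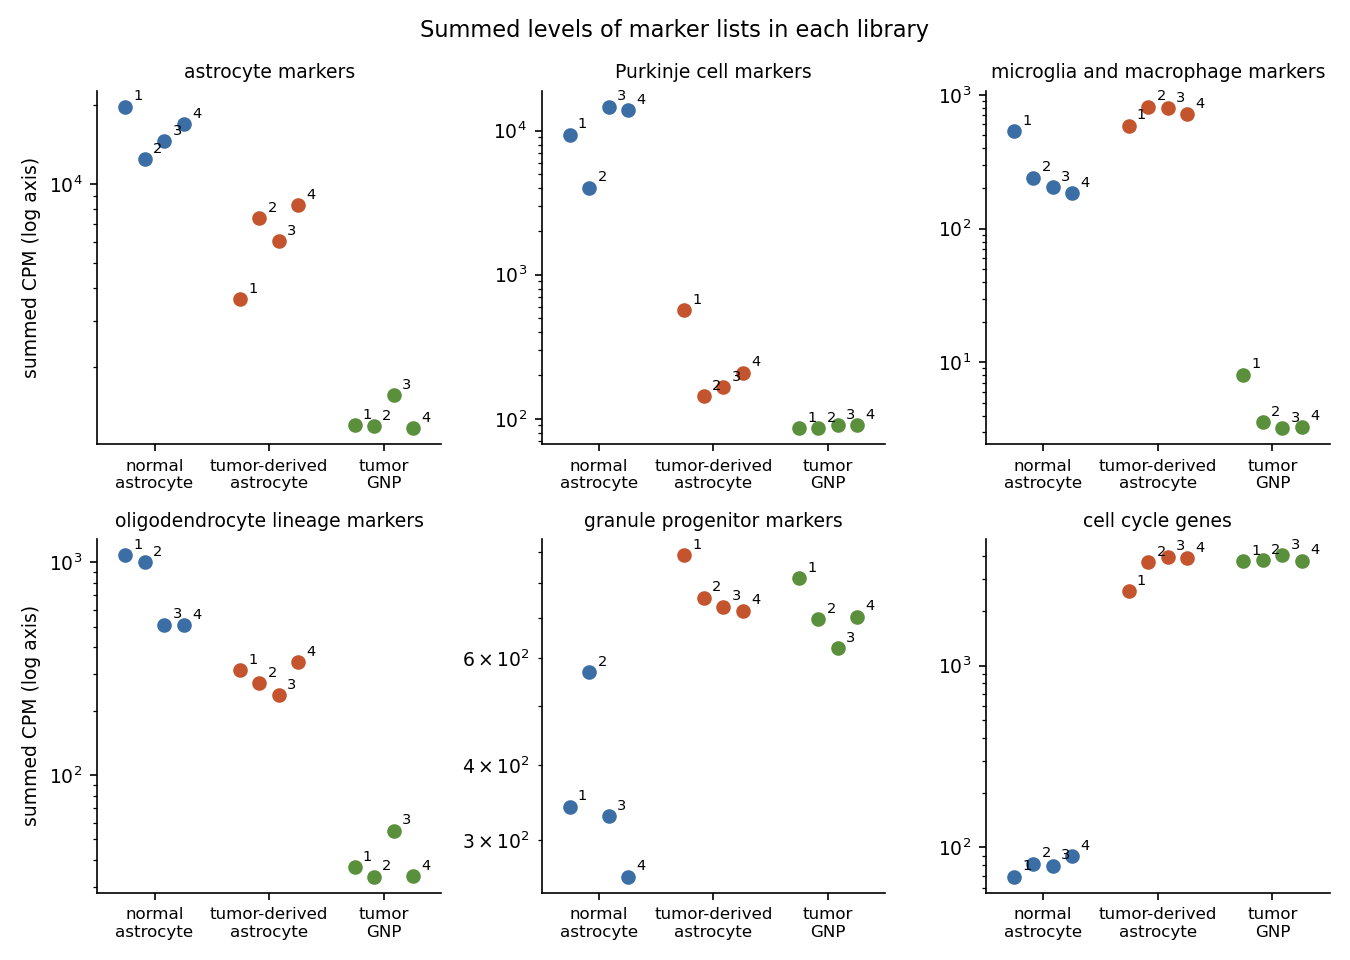
Summed TMM-normalised CPM (log axes, each panel with its own range) of 6 marker lists in each library, by group; points are libraries with their replicate number. Normal library 2, which had the highest Gfap of its group, has the lowest Purkinje sum of its group (4029 CPM) and the highest granule progenitor sum of its group (569 CPM).

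The genes whose pattern was most like that of each member were named by Pearson's r of log2(CPM + 1) over the 10 samples, among 8074 genes with a mean of at least 10 CPM. The samples fall into 3 groups, so such an r mostly follows the group levels and is given as a description. For Nes the 4 highest were Mex3a (0.988), Fbl (0.987), Lsm4 (0.987) and H2-M5 (0.986). Mex3a, an RNA-binding protein gene, was at 0.910 ± 0.545, 51.2 ± 1.77 and 17.6 ± 0.578 CPM in normal astrocytes, tumor-derived astrocytes and GNPs.

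For Gfap the 5 highest were Ascc2 (0.971), Cacna2d1 (0.957), Rpl14-ps1 (0.955), 4933404O12Rik (0.951) and Plcg1 (0.949); Rpl14-ps1 is a pseudogene whose reads may belong to its parent. Ascc2, a subunit gene of the activating signal cointegrator complex, was at 23.8 ± 31.0 CPM in normal astrocytes, where its SD, like that of Gfap, exceeded its mean, at 119 ± 43.7 CPM in tumor-derived libraries and at 58.2 ± 5.10 CPM in GNP libraries. For Vim they were 1110004F10Rik (0.961), Smarca5 (0.957), Srsf6 (0.951), Katna1 (0.945) and Ptges3 (0.942). Srsf6, a splicing factor gene, was at 63.6 ± 10.7, 58.2 ± 11.9 and 201 ± 17.7 CPM in the same order of groups.

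The 3 genes differed in how far their values moved when each library was left out in turn. For Nes the log2 fold change stayed within 4.65 to 5.07 for tumor-derived against normal astrocytes, 1.81 to 2.11 against GNPs and 2.72 to 3.16 for GNPs against normal astrocytes. For Vim the ranges were 0.01 to 0.36, -1.95 to -1.59 and 1.84 to 2.06. For Gfap they were 2.66 to 6.19, 1.43 to 1.90 and 0.89 to 4.42, and the values of 6.19 and 4.42 came from leaving out normal library 2.

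**Figure D5:**
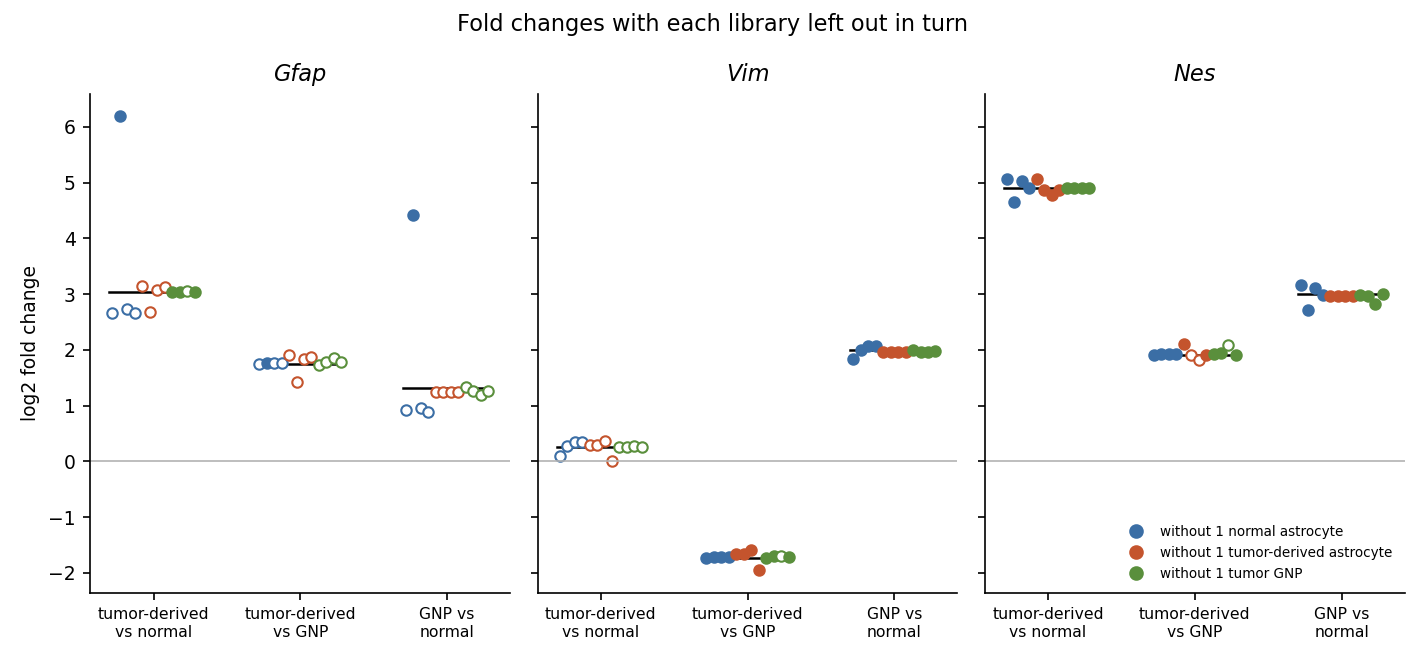
Log2 fold changes (edgeR) of Gfap, Vim and Nes in the 3 comparisons when each library is left out in turn; black lines are the values with all libraries, colours give the group of the library left out, filled points passed an adjusted p of 0.05 and open points did not. For Gfap the 2 points at 6.19 and 4.42 are those without normal library 2.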

How the data were processed

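The measurements are raw read counts per gene from the authors' deposited table. Per the submitters' processing notes, reads were aligned with STAR to mm10 and examined with FastQC; the counting program, its annotation and its strand setting were not given in the sources used here. Identical repeats (767 of 47284 lines) were removed, and 27 symbols that a spreadsheet had turned into dates were restored by identifier. All 37 mitochondrial genes had 0 counts. Groups follow the labels. edgeR 4.0.16 under R 4.3.3 gave robust quasi-likelihood F-tests with TMM factors for 16374 genes kept by filterByExpr (count of 10, total of 15), in 1 model of 3 group means over 10 samples (7 residual degrees of freedom, common biological coefficient of variation 0.783). Benjamini-Hochberg adjustment ran over all genes tested, with calls at 0.05, and an SE is the log2 fold change over the square root of F. The script was tested on simulated counts. Levels are TMM-scaled CPM with factors from the 14393 genes that pass the filter over 12 libraries. Floors of 3 counts, averaging 0.294 CPM in normal astrocytes, 0.339 in tumor-derived astrocytes and 0.314 in GNPs, cover counting error only, since reads carry no molecular identifiers. Named were all 3 members, all tested genes of the family list, the 5 genes most like each member, and from every other list up to 2 genes per direction and comparison with the largest change past 0.05; the text prints a part of these, 1 result is not reported here, and other genes are named as markers. The members and lists were chosen with earlier results of these data known, so their counts are descriptions. Alternatives were RLE and upper quartile factors, 2 other filters, DESeq2 1.42.0, all 12 libraries kept separate, fits of 2 groups alone, and leaving out each library.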

Additional observations from a re-analysis of the deposited data

Results flagged for a closer look

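Of 39 sets of 4 values tested by Dixon's ratio (gap to the nearest value over the range, critical value 0.829), 9 held a library far from the others. The nominal rate of about 1 in 20 assumes independent, normally distributed values. Ratios share counts with levels, so 9 of 39 cannot be read as an excess over it. GNPs, counted as 2 samples, and sets with 0 in every library were not tested. Normal library 2 accounted for 3 of the flags, which share its Gfap count. They were Gfap at 41.1 CPM, against at most 1.76 CPM in the other normal libraries, the log2 Gfap over Vim ratio of -0.35, and the log2 Gfap over Nes ratio of 2.45. The Gfap level of 152 CPM in tumor-derived library 2 was the fourth, against 66.0 to 79.3 CPM in the other 3 of that group. Tumor-derived library 1 accounted for 3: Nefh at 12.7 CPM (others 2.49 to 3.25), Prph at 23.4 CPM (others 3.80 to 6.02) and Des at 116 CPM (others 1.92 to 13.8). In normal astrocytes Des reached 21.2 CPM in library 1, against at most 2.73 CPM in the others. Lmnb1 at 0.0976 CPM in normal library 4 is a single count where the other 3 normal libraries had none, a pattern that always gives a ratio of 1.0. No flag fell on a Vim or Nes level.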

How the results depend on the processing

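No result of the 3 genes reversed under the alternatives run. Gfap in tumor-derived against normal astrocytes lost its call with no filter on low counts (3.01, adjusted p = 0.155, edgeR) and when the other group was left out of the model (3.1, adjusted p = 0.0595, edgeR), and passed in 8 of 18 alternatives; against GNPs it gained a call in the fit of those 2 groups (1.77). DESeq2 gave no p for Gfap. Leaving out libraries gave Gfap log2 fold changes of 2.66 to 6.19, 1.43 to 1.90 and 0.89 to 4.42 in the 3 comparisons, Vim 0.01 to 0.36, -1.95 to -1.59 and 1.84 to 2.06, and Nes 4.65 to 5.07, 1.81 to 2.11 and 2.72 to 3.16. Genes called in tumor-derived astrocytes against GNPs numbered 1617, but 4752 with 12 libraries kept separate, 3424 by DESeq2, 4495 in the fit of 2 groups, and 495 to 2288 with a library left out (fewest without GNP library 3). For GNPs against normal astrocytes they numbered 3951, but 6356 with 12 libraries kept separate, 1947 in the fit of 2 groups and 2488 to 4242 with a library left out. The 5285 called between the astrocyte groups ranged from 3718 to 5454 with a library left out. Upper quartile factors moved the median log2 fold change of all genes between the astrocyte groups from 0.105 to 0.312; Gfap, Vim and Nes kept their direction. Where these values change, the cause was not tested. No paired analysis was run, because replicate numbers only follow accession order and no label says which libraries of different groups share an animal. With 11 to 18 counts, Gfap in 3 normal libraries limits its fold change, and GNPs count as 2 samples.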
